A study of Mus musculus with 8 samples.

Results

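Genes of DNA replication and mitosis were compared between the cochleae of WT mice and of mice that lack miR-29a (KO). The genes were chosen by name from the deposited table, and 45 of its 21895 genes were taken. They comprised 24 genes that act in DNA replication during S phase, 3 regulators of entry into S phase, 15 genes that act in G2 and mitosis, and 3 inhibitors of cyclin-dependent kinases (Cdks). RNA-seq of whole cochlea, the fluid-filled bony canal that holds the organ of hearing, was available for 4 libraries of each genotype, numbered WT1 to WT4 and KO1 to KO4. WT mice carried both intact copies of miR-29a, and KO mice were homozygous for its deletion (miR-29a-/-). Both came from a strain on the C57BL/6 background that is bred from heterozygous parents. The deletion is carried by every cell of the animal and is not restricted to the cochlea. The age is 21 days in the series record and 2 months in the methods of the study. Levels of the deleted microRNA were not analysed here, and the genotypes are taken as labelled. No label says whether libraries came from separate mice, and the p-values therefore measure the spread between these libraries, which may be technical.

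Cells copy their DNA in S phase and separate the copies in mitosis. In G1, the origin recognition complex, Cdc6 and Cdt1 load the Mcm2 to Mcm7 helicase on DNA, and the helicase is later switched on by Cdc45 and the GINS complex, after which DNA polymerases copy the opened strands. E2F transcription factors, which the Rb family holds inactive until cyclin D and cyclin E kinases release them, drive many of these genes, whereas many mitotic genes are held down by the DREAM complex until G2. Most hair cells, neurons and supporting cells of the mature mammalian cochlea no longer divide, while the marrow of the surrounding temporal bone holds many dividing blood precursors.

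All 45 genes were expressed above the filter of a mean FPKM of 0.5 (FPKM, fragments per kilobase of transcript scaled to the mapped fragments), and 44 of them had a higher mean log2 level in KO than in WT. The study compared 3 samples per group with DESeq2, and 4 libraries per group were compared here with limma. At the threshold of the study, an unadjusted two-sided p under 0.05 with limma, 10 rose and 0 fell in KO. These were 7 of the 24 replication genes (Rpa2, Pold1, Pcna, Gins1, Mcm7, Mcm5 and Gins2), 1 of the 3 S phase entry regulators (E2f1), 1 of the 15 mitotic genes (Cdc20) and 1 of the 3 Cdk inhibitors (Cdkn2c). Among all 14990 tested genes, 4.61% rose and 0.507% fell by the same rule. With Benjamini-Hochberg adjustment over all tested genes, limma called 0 of the 45 genes and 0% of all genes, and the adjusted p-values of the 45 genes ranged from 0.947 to 0.994. WT and KO libraries did not overlap for 5 genes, Cdkn2c, E2f1, Rpa2, Pold1 and Pola1, all higher in KO, beside 3.02% of all tested genes that were separated in this direction and 0.487% in the other. In RNA of a whole tissue, more cells of a type and more RNA per cell cannot be told apart.

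The fold changes and their precision differed between the phases. The median log2 fold change was 1.70 over the mitotic genes, 0.72 over the replication genes, 0.83 over the S phase entry regulators and 0.49 over the Cdk inhibitors, against 0.10 over all tested genes. Without WT3 the medians were 0.73 for mitotic genes, 0.44 for replication genes and 0.41 for S phase entry regulators and 0.59 for Cdk inhibitors, against 0.13 over all tested genes. Without WT1 they were 2.47 for mitotic and 1.03 for replication genes, and that of the Cdk inhibitors was 0.27. The median standard error was 0.91 for the mitotic genes and 0.41 for the replication genes. With all 8 libraries the mitotic genes had the larger median and the smaller share of calls, whereas without WT1 all 15 mitotic and 20 of 24 replication genes were called, beside 12.1% of all tested genes. With all 8, 13 of the 15 mitotic genes had an unadjusted limma p between 0.05 and 0.15. The median SD of log2(FPKM + 0.1) among the WT libraries was 2.07 for mitotic and 0.87 for replication genes, whereas among the KO libraries it was 0.50 and 0.36.

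**Figure D1:**
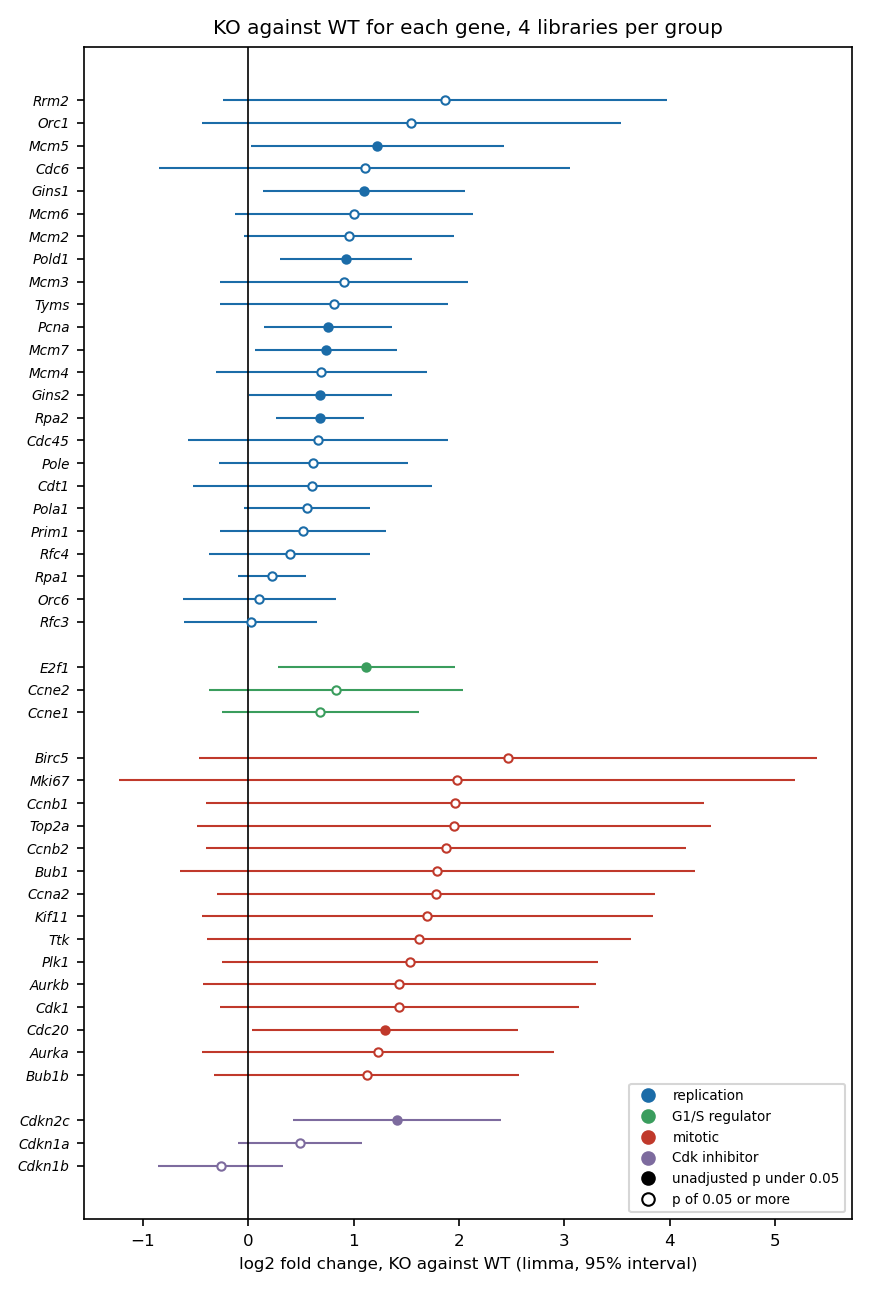
Log2 fold change of KO against WT for each of the 45 genes (x axis, limma estimate with its 95% interval, 4 libraries per group), grouped by class and coloured by it. Filled points have an unadjusted p under 0.05 and open points do not. The mitotic genes lie between 1.12 and 2.46 with wide intervals, and the replication genes lie between 0.02 and 1.87.

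The promoters of the replication and mitotic genes differed in short motifs that are read from the genome and not from the measured levels. In the RefSeq promoter table (GRCm38.p6, from 250 bases before to 50 bases after each start), 38 of the 45 genes were found. Not found were Pole, Ccne2, Mcm4, Ccna2, Gins2, Gins1 and Aurkb. A gene with several starts was counted when any of them held a match. Both strands were searched for the letters of an E2F-type site (TTTGGCGC or TTTCGCGC), the cell cycle genes homology region or CHR (TTTGAA), at which DREAM binds, and the box bound by NF-Y (CCAAT). Matches of different motifs shared a base at 1 place, in Mcm7.

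An E2F-type match was found in 8 of 20 replication genes (Orc1, Cdt1, Mcm3, Mcm5, Mcm6, Mcm7, Pola1 and Rfc3), in 1 of 13 mitotic genes (Cdk1) and in 0.929% of all 27025 genes of the table. A match each of 3 of them is shown because they belong to the loading factor and the helicase, with the match in capitals and the strand of the gene given.
Mcm6, chr1:128359735-128359762, minus strand: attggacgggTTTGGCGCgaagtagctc
Mcm5, chr8:75109346-75109373, plus strand: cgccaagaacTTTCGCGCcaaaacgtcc
Orc1, chr4:108579417-108579444, plus strand: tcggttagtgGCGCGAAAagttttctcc
In Mcm6 and Mcm5 the match lay upstream of the start, with its first base at -47 and -153, and in Orc1, where it is read on the opposite strand, at -27.

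A CHR match was found in 10 of 13 mitotic genes, in 2 of 20 replication genes (Mcm2 and Cdc45) and in 20.2% of all genes of the table. A match each of 4 of them is shown in capitals, from the main mitotic kinases, a cyclin and the activator of the anaphase-promoting complex.
Cdk1, chr10:69352911-69352938, minus strand: accgcggcgagTTTGAAactgctggcac
Plk1, chr7:122159454-122159481, plus strand: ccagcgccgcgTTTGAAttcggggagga
Ccnb2, chr9:70421534-70421561, minus strand: gcggcgcggtaTTTGAAtcgcggaccgg
Cdc20, chr4:118437345-118437372, minus strand: gacagttgggtTTTGAAggagccaatga
The match began upstream of the start in Cdk1 at -15 and in Cdc20 at -18, and downstream of it in Ccnb2 at 5 and in Plk1 at 31. The NF-Y box was found in 12 of 13 mitotic genes, in 15 of 20 replication genes and in 41.1% of all genes. Among further genes of the same pathways, listed apart from the 45, a CHR match was found in 29 of 42 mitotic genes and in 7 of 33 replication genes, and an E2F-type match in 1 of 42 and 5 of 33. A match of letters is a description and says nothing of binding in these cochleae.

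**Figure D2:**
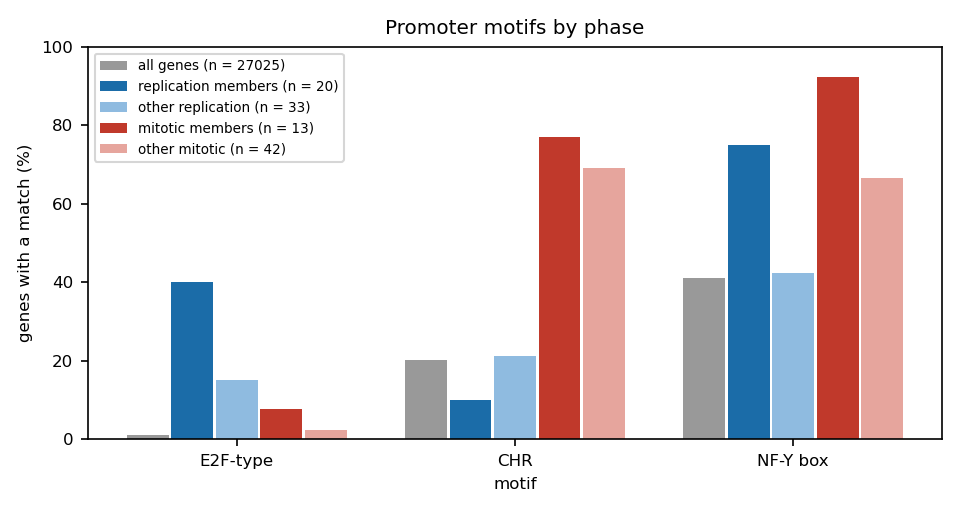
Percent of genes whose promoter holds each motif (y axis), for all 27025 genes of the RefSeq table, the replication and mitotic genes of the set and the further genes of both pathways. The CHR bar of the mitotic genes stands at 76.9% and that of all genes at 20.2%, and the E2F-type bar of the replication genes stands at 40.0%.

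Few of the 45 genes held the exact complement of bases 2 to 8 of the deleted microRNA in the 3′-UTR searched. The mature strand (RefSeq, GRCm38.p6, chr6:31062673-31062694, minus strand) is shown with its seed, bases 2 to 8, in capitals.
mmu-miR-29a-3p: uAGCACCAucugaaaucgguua
The complement of that seed, TGGTGCT, was present in the longest annotated 3′-UTR (GENCODE mouse release 21) of 3 of the 45 genes, which is 6.67%, and in 16.7% of the 14837 tested genes that had a 3′-UTR. None of the 24 replication genes held it. Other kinds of site were not searched, and these shares take no account of 3′-UTR length. The matches of these 3 genes are shown in capitals, with coordinates on GRCm38.
Ccna2, chr3:36566012-36566036, minus strand: ggttaacatTGGTGCTgccaactgt
Aurkb, chr11:69051349-69051373, plus strand: agcactacaTGGTGCTcacgaccac
Cdkn1a, chr17:29100685-29100709, plus strand: ccccaaagcTGGTGCTcaataaata
None of these 3 genes passed the unadjusted threshold in the fit of all 8 libraries. All 3 had positive log2 fold changes, and each passed in 2 of the 17 alternative fits. Among the further genes of the pathways, the match was present in 7 of 40 replication genes and 8 of 50 mitotic genes. It was also present in 4 of 22 genes of G1 and the Rb and E2F families (Ccnd2, Cdk2, Cdk6 and E2f4). Of 4 other Cdk inhibitors, 1 held it (Cdkn2d). Of these further genes with a match, Dut, Cdk6, Chaf1a and Mad2l1 rose, with unadjusted limma p-values of 0.00373, 0.00951, 0.0391 and 0.0407. The rest of them were not called, and 4.61% of all tested genes rose by the same rule.

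The libraries of a genotype were far from equal in these genes. WT3 had the lowest FPKM of all 8 libraries for 41 of the 45 genes, and WT1 had the highest for 23 and was the highest WT library for 39. In 23 genes WT1 lay above all KO libraries and in 7 genes below all of them. KO4 was the lowest KO library for 40 genes. The heat map of levels by library shows this order in all classes except the Cdk inhibitors. By column, the total FPKM was 249221 to 288695, and the 10 genes with the highest FPKM took 17.6% of it in WT1 against 8.50% to 10.9% in the other libraries. Read counts were not used here and the depth is unknown, but steps in values under 0.1 FPKM gave relative depths of 0.953 to 1.16 of the median.

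**Figure D3:**
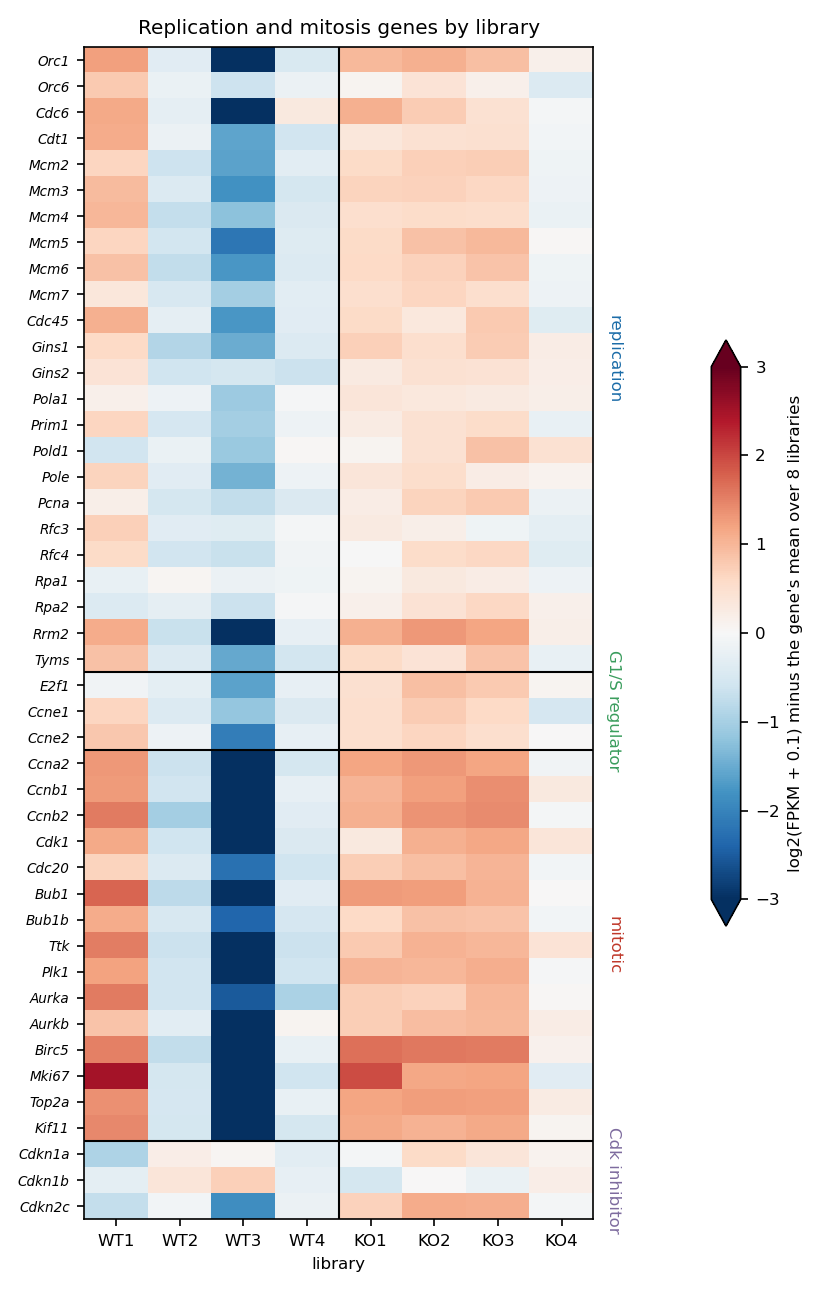
Log2(FPKM + 0.1) of each of the 45 genes in each of the 8 libraries, as the difference from the gene's mean over all 8 (colour, log2 units), with lines between the classes and between WT and KO. WT3 is darkest blue throughout the mitotic block, WT1 is red in most genes, and KO4 is the palest KO library.

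In the licensing step, no gene passed the threshold. Orc1 and Orc6 belong to the origin recognition complex, Cdc6 is recruited by it, and Cdt1 brings in the helicase. Their log2 fold changes were 1.55 ± 0.87 (SE) for Orc1, 0.11 ± 0.32 for Orc6, 1.11 ± 0.86 for Cdc6 and 0.61 ± 0.50 for Cdt1, with limma p-values of 0.112, 0.748, 0.230 and 0.255. WT1 was the highest and WT3 the lowest WT library for all 4, and Orc1 ran from 0.0300 FPKM in WT3 to 3.50 in WT1 against 1.59 to 3.12 in KO. Orc6 turned to -0.07 after quantile normalization, to -0.08 without WT3 and to -0.01 without KO2. Its exons overlap Vps35 on the other strand, and its coordinates in the table differ from the annotation used here.

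Among the 9 genes of the replicative helicase, 4 rose and all had positive fold changes. Mcm7 (chr5:138164583-138172422, minus strand of GRCm38, as are all gene positions given), a subunit of the Mcm2 to Mcm7 ring that unwinds DNA, had 20.7, 11.6, 7.95 and 13.0 FPKM in WT1 to WT4 and 22.9, 25.3, 23.0 and 14.6 in KO1 to KO4. KO1 to KO3 lay above all WT libraries, and KO4 lay among them. The means were 13.3 ± 5.36 and 21.5 ± 4.72 (SD, n = 4), the log2 fold change was 0.74 ± 0.30 (SE), and the unadjusted limma p was 0.0348. Of the 50-base words of its transcripts, 18.1% occur in other genes, mainly in the near copy Gm5487, and its exons overlap Cops6 and Ap4m1 on the other strand. Whether reads were assigned with strand is not given in the sources used here.

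Mcm5 (chr8:75109569-75128439, plus strand), a further subunit of the ring, had 13.8, 5.97, 1.89 and 6.70 FPKM in WT and 13.0, 16.2, 17.4 and 9.05 in KO. WT1 lay within the KO range, and the other WT libraries lay below it. Its log2 fold change was 1.23 ± 0.53, with an unadjusted limma p of 0.0459, and without WT3 it was 0.71 with a limma p of 0.0734. The remaining subunits Mcm2, Mcm3, Mcm4 and Mcm6 had log2 fold changes of 0.69 to 1.003 and p-values of 0.0575 to 0.151. Within a library, the highest of the 6 subunits exceeded the lowest by 1.62 to 2.36 times in 7 libraries and by 4.21 times in WT3. The summed level of the 6 was 106, 42.6, 22.5 and 49.0 FPKM in WT and 94.9, 104, 104 and 58.9 in KO, and the groups overlapped through WT1.

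Gins1 (chr2:150905400-150931280, plus strand) and Gins2 (chr8:120578633-120589304, minus strand), subunits of the GINS complex that travels with the helicase, both rose. Gins1 had 2.83, 0.939, 0.581 and 1.35 FPKM in WT and 3.07, 2.65, 3.14 and 2.13 in KO, with a log2 fold change of 1.10 ± 0.42 and an unadjusted limma p of 0.0293. Gins2 had 1.49, 0.684, 0.728 and 0.659 FPKM in WT and 1.35, 1.55, 1.50 and 1.27 in KO. In both genes WT1 lay inside the KO range and the other WT libraries lay below all KO libraries. The log2 fold change of Gins2 was 0.68 ± 0.30 with an unadjusted limma p of 0.0487. Gins2 exons overlap Gse1 on the other strand. Cdc45, which completes the active helicase, had 0.66 ± 0.54 and a p of 0.255.

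Of the polymerase genes, Pold1 (chr7:44532746-44548849, minus strand), the catalytic subunit of DNA polymerase delta, rose. It had 5.09, 6.55, 3.43 and 7.75 FPKM in WT and 8.07, 10.4, 14.0 and 10.4 in KO. All KO libraries lay above all WT libraries, by a small step between WT4 and KO1, and here WT1 was not the highest WT library. The means were 5.70 ± 1.87 and 10.7 ± 2.44 (SD, n = 4), with a log2 fold change of 0.93 ± 0.27 and an unadjusted limma p of 0.00842. Pola1, the catalytic subunit of the polymerase alpha and primase complex, ranged from 2.90 to 7.005 FPKM in WT and from 7.04 to 8.13 in KO without overlap, and had a log2 fold change of 0.55 ± 0.26 and a p of 0.0647. The primase subunit Prim1 and the polymerase epsilon gene Pole had 0.52 ± 0.35 and 0.62 ± 0.39, with p-values of 0.168 and 0.151.

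In the group of the sliding clamp and the proteins on unpaired DNA, Rpa2 and Pcna rose. Rpa2 (chr4:132768332-132778752, plus strand), a subunit of replication protein A, which covers unpaired DNA, had 4.95, 5.51, 4.25 and 6.45 FPKM in WT and 7.41, 9.02, 10.2 and 7.44 in KO. The groups did not overlap, WT4 was the highest WT library, and WT1 lay below the middle of the WT range. The means were 5.29 ± 0.930 and 8.52 ± 1.35 (SD, n = 4), the log2 fold change was 0.68 ± 0.18, and the unadjusted limma p of 0.00521 was the smallest of the 45 genes. Rpa1, the large subunit of the same complex, had 10.7, 13.0, 11.1 and 11.3 FPKM in WT and 13.2, 15.1, 14.6 and 11.2 in KO. Its log2 fold change of 0.23 ± 0.14 had a p of 0.143, and its highest library exceeded the lowest by only 1.42 times, the least of the 45 genes.

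Pcna (chr2:132249162-132253314, minus strand), the clamp that keeps polymerases on DNA, was the most abundant replication gene. It had 37.1, 22.7, 19.8 and 24.4 FPKM in WT and 38.6, 52.5, 57.1 and 29.0 in KO. WT1 lay above KO4 and below the other KO libraries, while WT2 to WT4 lay below all of KO. The log2 fold change was 0.76 ± 0.27, and the unadjusted limma p was 0.0198. Of its 50-base words, 19.1% occur in the processed copy Pcna-ps2. The clamp loader genes Rfc3 and Rfc4 had 0.02 ± 0.28 and 0.39 ± 0.34, with p-values of 0.931 and 0.273. Rfc3 turned to -0.07 after median-ratio scaling and to -0.15 after quantile normalization, and so had no stable direction.

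The nucleotide supply genes did not pass the threshold. Rrm2, the regulated subunit of ribonucleotide reductase, had 32.8, 9.45, 0.891 and 12.6 FPKM in WT and 31.7, 37.2, 34.5 and 17.0 in KO. WT1 lay within the KO range, and WT3 lay far below the other libraries. The log2 fold change was 1.87 ± 0.92 with a limma p of 0.0753. Tyms, which makes thymidylate, had 0.81 ± 0.47 and a p of 0.123.

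Of the regulators of S phase entry, E2f1 rose. This activator of replication genes (chr2:154559407-154569892, minus strand) had 1.81, 1.56, 0.575 and 1.62 FPKM in WT and 2.76, 3.70, 3.39 and 2.04 in KO. The groups did not overlap, and KO4 lay just above WT1. The means were 1.39 ± 0.553 and 2.98 ± 0.734 (SD, n = 4), and the log2 fold change was 1.12 ± 0.37 with an unadjusted limma p of 0.0149. Ccne1 and Ccne2, the E cyclins that activate Cdk2, had 0.68 ± 0.41 and 0.83 ± 0.53, with p-values of 0.132 and 0.153.

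Among the mitotic genes, Cdc20 passed the threshold. Cdc20 (chr4:118432901-118437352, minus strand), the activator of the anaphase-promoting complex, had 9.05, 4.27, 1.13 and 3.72 FPKM in WT and 9.58, 10.8, 11.7 and 5.40 in KO. WT1 lay within the KO range and the other WT libraries lay below it. The means were 4.54 ± 3.30 and 9.37 ± 2.79 (SD, n = 4), with a log2 fold change of 1.30 ± 0.55 and an unadjusted limma p of 0.0450, and without WT3 the log2 fold change was 0.77 with a limma p of 0.0781. Of its 50-base words, 10.4% occur in other genes, and its exons overlap Elovl1 on the other strand. Bub1, Bub1b and Ttk, kinases and kinase-like proteins of the spindle checkpoint, had log2 fold changes of 1.79 ± 1.07, 1.12 ± 0.64 and 1.62 ± 0.88, with p-values of 0.130, 0.113 and 0.101.

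The 3 mitotic genes with the highest mean FPKM were Mki67, Top2a and Ccna2. Mki67, which coats mitotic chromosomes and gives the Ki-67 marker of dividing cells, had 115, 14.1, 0.406 and 13.5 FPKM in WT and 78.9, 45.7, 46.6 and 16.03 in KO. WT1 was the highest of all libraries, WT3 was the lowest, and the WT libraries spanned the KO range on both sides. Means were 35.6 ± 53.0 and 46.8 ± 25.7 (SD, n = 4), with a log2 fold change of 1.98 ± 1.41 and a limma p of 0.194. Top2a, the topoisomerase that untangles sister chromosomes, had 65.8, 17.7, 0.994 and 21.4 FPKM in WT and 57.2, 60.4, 58.9 and 30.0 in KO. Its log2 fold change was 1.95 ± 1.07 with a p of 0.104. Kif11, the motor that pushes the spindle poles apart, had 1.70 ± 0.94 and a p of 0.106.

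In the cyclins and kinases of mitosis, WT3 was the lowest of all 8 libraries and WT1 the highest WT library, and KO4 was the lowest KO library for all of them but Cdk1, where KO1 was. Ccna2, the A cyclin of S phase and G2, had 25.8, 6.58, 0.709 and 7.12 FPKM in WT and 23.6, 25.6, 23.5 and 9.67 in KO, with a log2 fold change of 1.78 ± 0.91 and a limma p of 0.0840. Plk1, the polo kinase of spindle assembly, had 10.02, 2.81, 0.408 and 2.77 FPKM in WT and 8.69, 8.54, 9.17 and 4.16 in KO, with 1.53 ± 0.78 and a p of 0.0836. In both genes WT1 exceeded every KO library, and the other WT libraries lay below all of them. The B cyclins Ccnb1 and Ccnb2 and their kinase Cdk1 had log2 fold changes of 1.96 ± 1.04, 1.88 ± 1.001 and 1.43 ± 0.75, with p-values of 0.0920, 0.0949 and 0.0891, and 23.4% of the 50-base words of Ccnb1 occur in other genes such as its copy Ccnb1-ps. Aurka, Aurkb and Birc5, the Aurora kinases and a subunit of the Aurora B complex, had 1.23 ± 0.73, 1.43 ± 0.82 and 2.46 ± 1.29, with p-values of 0.129, 0.115 and 0.0896.

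The Cdk inhibitors differed among themselves. Cdkn2c (chr4:109660876-109667189, minus strand), the p18 inhibitor of Cdk4 and Cdk6, rose, with 2.29, 3.64, 0.986 and 3.39 FPKM in WT and 6.26, 8.40, 8.26 and 3.68 in KO. The groups did not overlap, but KO4 lay just above WT2. The means were 2.58 ± 1.21 and 6.65 ± 2.21 (SD, n = 4), and the log2 fold change was 1.41 ± 0.43 with an unadjusted limma p of 0.0103. Cdkn1a, the p21 inhibitor induced by p53, had 17.2, 37.2, 34.0 and 26.2 FPKM in WT and 31.2, 48.5, 42.3 and 35.0 in KO. Its groups overlapped, and its log2 fold change of 0.49 ± 0.26 had a limma p of 0.0902. Cdkn1b, the p27 inhibitor that keeps many differentiated cells out of the cycle, had 30.9, 49.4, 62.1 and 31.9 FPKM in WT and 26.5, 38.1, 33.2 and 43.5 in KO. It was the only gene of the 45 with a negative value, -0.26 ± 0.26, with a p of 0.344. WT1 was the lowest WT library for Cdkn1a and Cdkn1b, and WT3, the lowest library for most other genes, was the highest of all 8 for Cdkn1b.

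Set against each other within a library, replication and mitotic genes did not keep a fixed ratio. The mean log2(FPKM + 0.1) over the replication genes was 3.12, 2.09, 1.05 and 2.24 in WT1 to WT4 and 2.97, 3.09, 3.11 and 2.46 in KO1 to KO4. Over the mitotic genes it was 3.90, 1.92, -1.20 and 2.07 in WT and 3.54, 3.63, 3.66 and 2.59 in KO. On this mean log2 scale, mitotic genes exceeded replication genes in WT1 and in every KO library. They lay below the replication genes in WT2, WT3 and WT4. Summed FPKM gave another order in KO2, KO3 and KO4. There the mitotic sums were 248, 250 and 112 FPKM and the replication sums 290, 298 and 175 FPKM. In WT1 and KO1 the mitotic sums were the larger, at 341 and 267 FPKM against 273 and 254. The difference, replication minus mitotic, averaged 0.45 ± 1.28 over the WT and -0.45 ± 0.21 over the KO libraries (SD, n = 4), with an overlap of the groups through WT1. Without WT3 the WT mean turned to -0.14, and the KO minus WT difference went from -0.90 to -0.30. In summed FPKM, WT3 had 9.22% of the WT2 level for the mitotic genes and 60.7% for the replication genes, and WT1 had 4.63 and 2.03 times the WT2 level. The ratio of the highest to the lowest library had a median of 47.5 over the mitotic genes, with a maximum of 674 for Birc5, and of 4.67 over the replication genes. The ratio of Birc5 sets 17.5 FPKM in KO1 against 0.0259 in WT3, which is near the floor and makes it imprecise. Ttk, Bub1 and Ccnb1, and Orc1 among the replication genes, also lay under 0.1 FPKM in WT3.

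**Figure D4:**
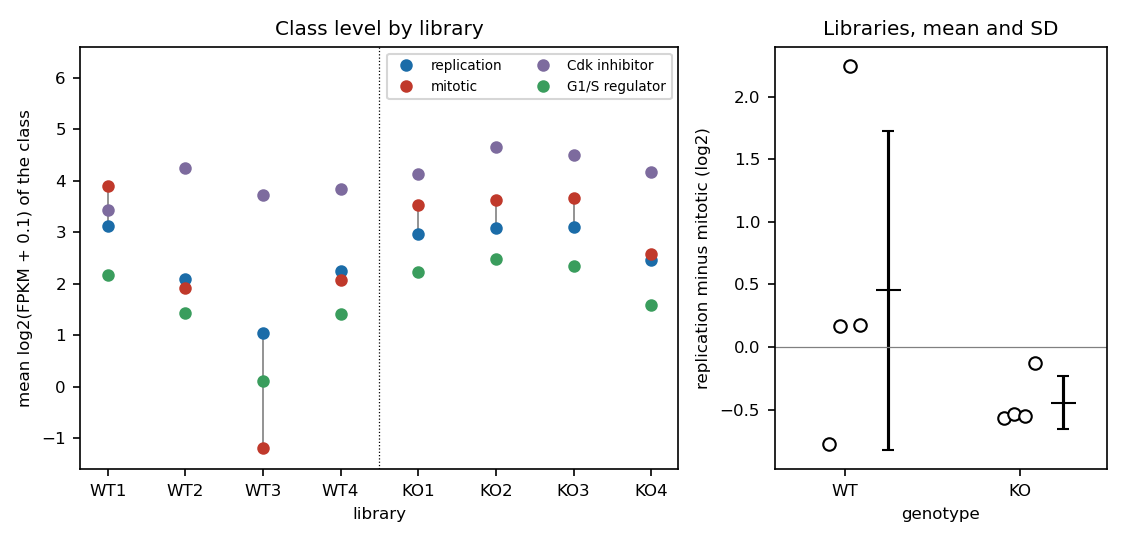
Left, mean log2(FPKM + 0.1) of the genes of each class in each library (points, with a line from the replication to the mitotic mean). Right, the replication mean minus the mitotic mean by genotype, with each library as a circle and the group mean and SD as bars (n = 4). WT3 stands at 2.25 and WT1 at -0.78, and the KO libraries lie between -0.56 and -0.13.

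Further genes of the same pathways, listed apart from the 45, were read from the same fit. Among all tested genes, 4.61% rose and 0.507% fell, with a median log2 fold change of 0.10. Of 40 other replication genes, 6 rose and 0 fell, and the median log2 fold change was 0.46. Those with the smallest p-values were Dut, which removes dUTP, with 0.87 ± 0.22 and an unadjusted limma p of 0.00373, Gmnn, the inhibitor of Cdt1, with 0.95 ± 0.34 and 0.0205, and the ribonuclease H2 subunit Rnaseh2c, with 1.06 ± 0.42 and 0.0349. Of 50 other mitotic genes, 7 rose, 0 fell and all 50 were positive, with a median of 1.35. Nek2, a centrosome kinase, had 0.99 ± 0.37 and a limma p of 0.0258, the Cdk subunit Cks1b had 1.03 ± 0.39 and 0.0265, and the centromere histone Cenpa had 1.31 ± 0.53 and 0.0369. Of 22 other genes of G1 and of the Rb and E2F families, 2 rose and 0 fell, with a median of 0.28. These were Tfdp2, the dimer partner of E2F proteins, with 0.64 ± 0.19 and a limma p of 0.00899, and Cdk6, a kinase of G1, with 0.88 ± 0.27 and 0.00951. Of 4 other Cdk inhibitors, 3 passed the filter and 0 were called at the unadjusted limma threshold or after adjustment, with a median of 0.09.

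Summed markers of blood cells and their precursors varied across the libraries, in part as the replication and mitotic genes did. In each list of blood markers below, WT3 was the lowest library and WT1 the highest WT library. WT1 lay below KO1, KO2 and KO3 for the erythroid markers. For the B cell precursor markers with Ebf1 it lay below every KO library. Summed over 14 markers of neutrophils and their precursors, the level was 10944, 753, 74.7 and 1020 FPKM (WT1 to WT4). In KO1 to KO4 it was 3806, 2765, 5758 and 1932 FPKM. As for the mitotic genes, this sum was lowest in WT3, highest in WT1 and, within KO, lowest in KO4. Of these markers, 14 of 14 were positive and 0 called, with Ctsg listed at 0 in 1 library. In WT1, S100a9 and S100a8 alone gave 3458 and 2821 FPKM of the sum. Precursors and mature neutrophils were not separated, and the sum does not measure dividing precursors alone. The order did not hold for every marker, as Prtn3 and Camp were highest in KO3. WT3 had 9.92% of the WT2 level for this list and WT1 had 14.5 times that level. Over 9 measured erythroid markers the sum ranged from 6.13 to 339 FPKM in WT and from 145 to 435 in KO, and 2 rose, the erythropoietin receptor Epor and the heme enzyme Alas2. Ahsp was not analysed here. Over 11 markers of B cell precursors it ranged from 35.2 to 72.3 FPKM in WT and from 73.6 to 136 in KO, and 6 rose (Vpreb1, Igll1, Dntt, Rag1, Vpreb3 and Pax5). Without Ebf1, which was not called, the B precursor sums were 2.47 to 49.4 and 35.8 to 98.6 FPKM, and the groups overlapped. Over 8 markers of blood stem cells and megakaryocytes the ranges were 50.1 to 172 and 97.5 to 146 FPKM with 0 called, and over 10 bone and cartilage markers they were 180 to 561 and 694 to 834 FPKM, with Col1a1 called. Without Col1a1 the latter sums were 116 to 417 in WT and 321 to 413 in KO, and overlapped. The part of these cells in the levels of the replication and mitotic genes was not tested.

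Markers of the cochlea itself did not share this order and were present in every library. The 10 hair cell markers summed to 31.7 to 50.6 FPKM in WT and 28.5 to 41.9 in KO, the 10 markers of supporting cells and fibrocytes to 1591 to 2460 and 1722 to 2182, the 10 of spiral ganglion neurons to 403 to 1104 and 754 to 911, and the 7 of Schwann cells to 417 to 1398 and 727 to 936, with 0 called in each. Of 9 markers of the stria vascularis, 0 rose and 2 fell, Bsnd and Tyr, and their sums were 205 to 545 and 279 to 375 FPKM. WT3 was the highest WT library in all 5 of these lists, and WT1 was the lowest WT library in 4 of them.

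**Figure D5:**
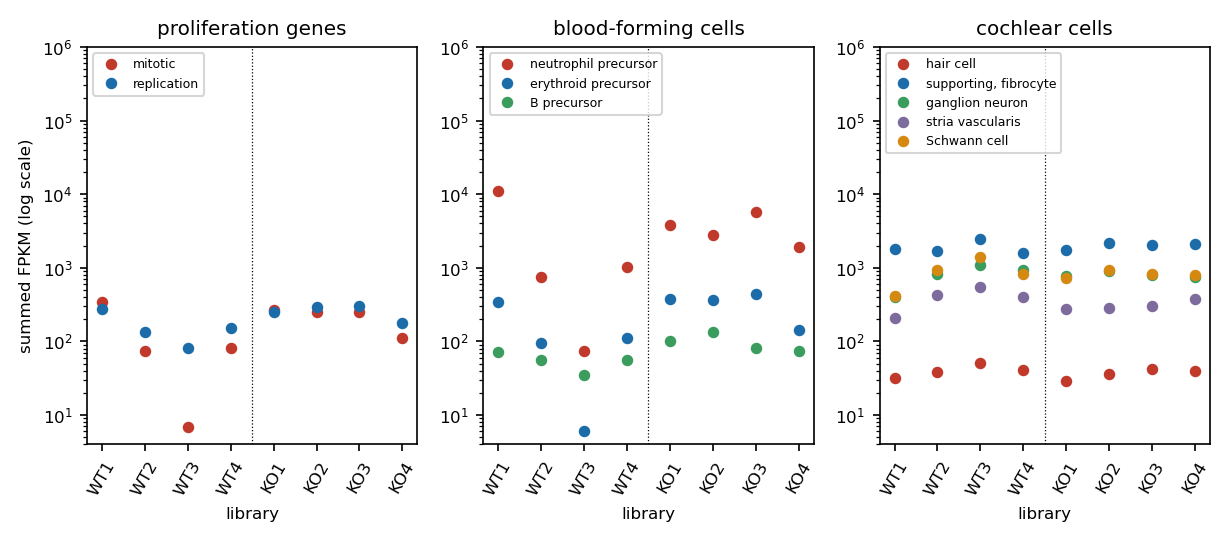
Summed FPKM (log axis) of gene lists in each library, with replication and mitotic genes on the left. Markers of blood cells and their precursors are in the middle and markers of cochlear cells on the right. The mitotic sum and that of the neutrophil markers, labelled neutrophil precursor, are lowest in WT3, at 6.78 and 74.7. They are highest in WT1, at 341 and 10944, while the hair cell sum stays between 28.5 and 50.6.

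The number of calls depended on the scaling and on which libraries were fitted, and changed most without WT1. Without WT1, 39 of the 45 genes rose, 20 of 24 replication genes, all 3 S phase entry regulators, all 15 mitotic genes and Cdkn2c, beside 12.1% of all tested genes that rose and 7.4% that fell, and the lowest adjusted p of the 45 genes with limma was 0.145. Without WT3, 4 rose, beside 3.58% of all tested genes. Without both WT1 and WT3, an alternative added after the data had been seen, 36 rose, beside 9.17% of all tested genes that rose and 6.97% that fell. After median-ratio scaling, which brought the median log2 fold change of all genes from 0.10 to 0.00, 4 rose, beside 2.69% of all tested genes that rose and 2.41% that fell, and after quantile normalization 5 rose, beside 2.52% and 3.4%. With replicates 1 to 3 only, 6 rose, beside 4.23% of all tested genes. Leaving out WT2, WT4 or KO1 gave 5, 6 and 5, beside 3.61%, 4.24% and 3.67% of all tested genes that rose and 0.233%, 0.354% and 0.38% that fell. Leaving out KO2 or KO3 gave 4 each, beside 2.16% and 1.95%, and leaving out KO4 gave 11, beside 5.17% that rose and 0.634% that fell. With the replicate number as a block, which adds Cdkn1a, 8 rose, beside 4.92% that rose and 0.667% that fell. Rpa2, Pold1, E2f1 and Cdkn2c passed the unadjusted limma threshold in all 17 alternatives. Pcna passed in 12, Gins1 in 9, Mcm7 in 8, Cdc20 in 6, and Mcm5 and Gins2 in 5. The alternatives share most of their libraries and are not independent. The share of all tested genes that passed in all 17 was not determined.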

How the data were processed

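Strand-specific libraries were prepared from rRNA-depleted total RNA. The authors aligned the read pairs using Hisat2, and the deposited values are FPKM of each gene in each library. The tool and annotation behind the FPKM, and whether strand was used in counting, are not given in the sources used here. The sample records name mm9, but 19771 of 21895 genes had the coordinates of GENCODE mouse release 21 on GRCm38, among them 44 of the 45 genes described. The number of per-sample columns left unused was 0. The count test of the study could not be repeated on FPKM, and limma 3.58.1 (R 4.3.3) was run on log2(FPKM + 0.1) instead, on genes whose FPKM averaged 0.5 or more, with genotype as the only factor, moderated variances with a mean-variance trend and Benjamini-Hochberg adjustment over all tested genes. A fold change on this scale understates the change of low genes. Calls used an unadjusted two-sided p under 0.05, as in the study. The fit and the motif search were tested on simulated data. The genes described and all lists were chosen with earlier results of these data known. Values per library are given for called genes, the 3 Cdk inhibitors and, in the replication and mitotic classes, the 3 genes with the highest mean FPKM and the 3 with the smallest p, and of further pathway genes at most 3 per list are named. A marker of the stria vascularis is not reported here. The values of Rpa1, and the ranges of Orc1, Pola1 and Birc5, were added after they had been seen.

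Samples were grouped by the labels. Alternatives were a pseudocount of 1, no filter, quantile normalization, median-ratio scaling, a mean FPKM of 1 as the minimum, no mean-variance trend, the replicate number as a block, replicates 1 to 3 only, and leaving out each library. WT and KO libraries share replicate numbers in the labels only. The deviations from the group means of same-numbered libraries correlated at 0.42, -0.24, -0.17 and 0.21, so the numbers were not taken to pair the libraries.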

Additional observations from a re-analysis of the deposited data

Results flagged for a closer look

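A library far from the other 3 of its group was found in 11 of 100 groups of 4 values, where chance gives about 1 in 20. KO4 lay below the other KO libraries for Mcm3 at 7.12 FPKM, Mcm4 at 7.70, Ccna2 at 9.67, Plk1 at 4.16, Birc5 at 6.06, Top2a at 30.0 and Kif11 at 7.58, and for the mean log2 level of the mitotic genes at 2.59. For the replication minus mitotic difference KO4 lay above the other KO libraries, at -0.13. WT1 lay above the other WT libraries for Gins2 at 1.49 FPKM and for Mki67 at 115. These genes share their libraries and are not independent.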

How the results depend on the processing

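The 10 genes that rose became 4 after median-ratio scaling, 5 after quantile normalization, 6 with replicates 1 to 3 only, 36 without WT1 and WT3 (added after the data had been seen) and 4 to 39 when 1 library was left out, with 39 reached without WT1. Without WT2, WT3, WT4, KO1, KO2 and KO3 the counts were 5, 4, 6, 5, 4 and 4. None of the 45 fell in any alternative. The 15 further pathway genes that rose became 7 without the filter, where 921 of all 21895 genes rose. They became 3 after median-ratio scaling and 5 after quantile normalization, beside 2.69% and 2.52% of all tested genes. They became 70 without WT1 and WT3 (beside 9.17% of all tested genes) and 3 to 79 with 1 library left out (79 without WT1, beside 12.1%). The 0 that fell became 1 after quantile normalization, 1 without WT1 and WT3 and 0 to 1 with 1 library left out. Rfc3 was reversed at -0.074 after median-ratio scaling, -0.15 after quantile normalization and from -0.0900 to 0.27 with 1 library left out, and Orc6 at -0.068 after quantile normalization and from -0.0800 to 0.38. The cause was not tested. The class medians and the replication minus mitotic difference kept their sign in every alternative. Each moved by less than the SD of its level between libraries, pooled over the genotypes. This limit is wide and says little about stability. For the difference of -0.90, the SD before pooling was 1.28 in WT and 0.21 in KO. Without WT3 the mitotic median went from 1.70 to 0.73, the replication median from 0.72 to 0.44 and the difference from -0.90 to -0.30. With a pseudocount of 1 the mitotic median was 1.11. A pseudocount of 1 also took Gins1 to 0.70 and Gins2 to 0.37, and leaving out WT1 and WT3 took Pold1 to 0.55 and Cdkn2c to 0.83, with all 4 still called. Among all genes, 691 rose and 76 fell, which became 403 and 361 after median-ratio scaling and 378 and 510 after quantile normalization. With the replicate block, 8 of the 45 genes rose, 7 of them among the 10, and each library correlated best with its own number for 2 of 4 numbers. Without counts, the error from depth could not be given.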
